A study of Mus musculus with 6 samples.

Results

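The Hox cluster genes encode homeodomain transcription factors and lie in 4 clusters, HoxA on mouse chromosome 6, HoxB on chromosome 11, HoxC on chromosome 15 and HoxD on chromosome 2. Members were taken by symbol, as array rows whose annotation names exactly 1 gene called Hoxa, Hoxb, Hoxc or Hoxd with a number. This gave 37 of the 19938 genes measured: 10 of HoxA, 9 of HoxB, 9 of HoxC and 9 of HoxD. Each had 1 row. Hoxb8 shared a row with Hoxb7, so that row was left out.

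The study asked how early blood progenitors differ once Cebpa is deleted. Its product, C/EBPα, drives progenitors towards granulocytes and monocytes. The tested mice carried loxP-flanked Cebpa alleles and the Mx1Cre transgene (Cebpafl/fl;Mx1Cre, called deleted here, n = 3). The control mice carried the same floxed alleles without the transgene (Cebpafl/fl, n = 3). Both genotypes were injected with pIpC, a double-stranded RNA that drives the interferon-responsive Mx1 promoter, and both were taken at day 18. Because controls lacked the transgene, Cre itself and the loss of Cebpa cannot be told apart. From bone marrow, Kit-enriched LSK CD150- cells were sorted. These are cells without mature lineage markers that carry Sca-1 and Kit, mostly multipotent progenitors. Total RNA of each sample was amplified and hybridised to its own Affymetrix Mouse Gene 1.0 ST array. The labels call the samples triplicates without saying that each came from its own mouse, so p-values measure the spread between these samples, which may in part be technical. Ages were not given in the sources used here.

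As background, Hox genes are numbered by paralogue group along each cluster, from the anterior group at one end to the posterior group at the other. In blood-forming cells the HoxA and HoxB clusters are the ones best known to be used: Hoxa9 and Hoxa10 promote the expansion of progenitors, Hoxb4 the self-renewal of stem cells, and Hoxb5 marks long-term stem cells in the mouse. Hox proteins bind DNA weakly alone and act with the TALE homeodomain proteins of the Meis and Pbx families. The methyltransferase encoded by Kmt2a (MLL) keeps Hox genes active, and Polycomb complexes silence them. In leukaemia cells driven by Hoxa9 and Meis1, C/EBPα is known to bind many of the same enhancers as Hoxa9.

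Values are the authors' deposited log2 values per row. A row whose mean over the 6 arrays lay below the median of all values, 6.20, is called dim. No detection calls were at hand, so this cut does not mark where signal ends and background begins. Background may make up much of the reading of a dim row, and a row above the cut is not thereby shown to be expressed. Probes differ in how well they bind, so the level of one row says nothing of its order against another, and only differences between genotypes within a row are compared. The array medians lay between 6.16 and 6.20 on deleted arrays and between 6.22 and 6.23 on control arrays. Cebpa read 6.37, 5.82 and 6.09 in deleted samples, against 7.84, 7.85 and 7.73 in controls. Its limma log2 difference, deleted minus control, was -1.71 ± 0.14 (SE, adjusted p = 0.000883), and an exact two-sided permutation test gave p = 0.1, the smallest that 3 against 3 allows. Of the LSK marker list (Kit, Cd34 and Flt3, without Ly6a), Kit (-0.75, limma adjusted p = 0.0270) and Flt3 fell, and the list averaged 9.93 to 10.03 on deleted arrays and 10.51 to 10.62 on control arrays. With 1 array left out, Kit passed only without deleted a, and its adjusted p reached 0.101 without control b. Slamf1, which encodes CD150, was dim on all 6 arrays (3.94 to 4.86 in deleted samples and 3.48 to 3.93 in controls). Of 7 measured lineage markers only Itgam, which encodes a myeloid integrin, lay above the median of all values. It read 7.07, 6.88 and 7.01 in deleted samples, against 6.36, 6.74 and 6.63 in controls, with no overlap (log2 difference 0.41, limma adjusted p = 0.146, unadjusted p = 0.00823). The list, with 6 dim members, averaged 5.43 to 5.58 in deleted samples and 5.43 to 5.56 in controls. The labels call the mice female, but 2 genes of the Y chromosome, Kdm5d and Eif2s3y, had values of 8.04 to 8.28 on deleted arrays and 8.13 to 8.49 on control arrays. Xist read 4.64 to 5.02 on deleted arrays and 4.46 to 5.13 on control arrays. On all 6 arrays the Y genes thus lay above the median of all values and Xist below it, which is at odds with the female label. The sex of the mice was not otherwise checked.

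No Hox gene passed the test after deletion of Cebpa. Over all genes tested, 1.43% were called at an adjusted p under 0.05 (limma, Benjamini-Hochberg over 19938 genes), and among the 37 Hox genes 0 were (0.732% of all genes were called lower and 0.702% higher). At an unadjusted p under 0.05 there were 7 Hox genes, or 18.9%, close to the 15.9% of all genes. Hoxa5, Hoxa9, Hoxb2, Hoxb5 and Hoxb6 read lower in deleted samples, 5 of 37 against 6.77% of all genes, and Hoxc9 and Hoxd12 read higher, 2 of 37 against 9.1%. The median log2 difference of the 37 was 0.01, against 0.03 for all genes, with 17 below 0 and 20 above. For the 12 Hox genes above the median of all values it was -0.10, with 7 below 0 and 5 above. All genes above that median had 0.00. For the 25 dim Hox genes it was 0.07, against 0.05 for all dim genes. Differences of the 37 ran from -0.61 (Hoxb5) to 0.41 (Hoxc9).

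**Figure D1:**
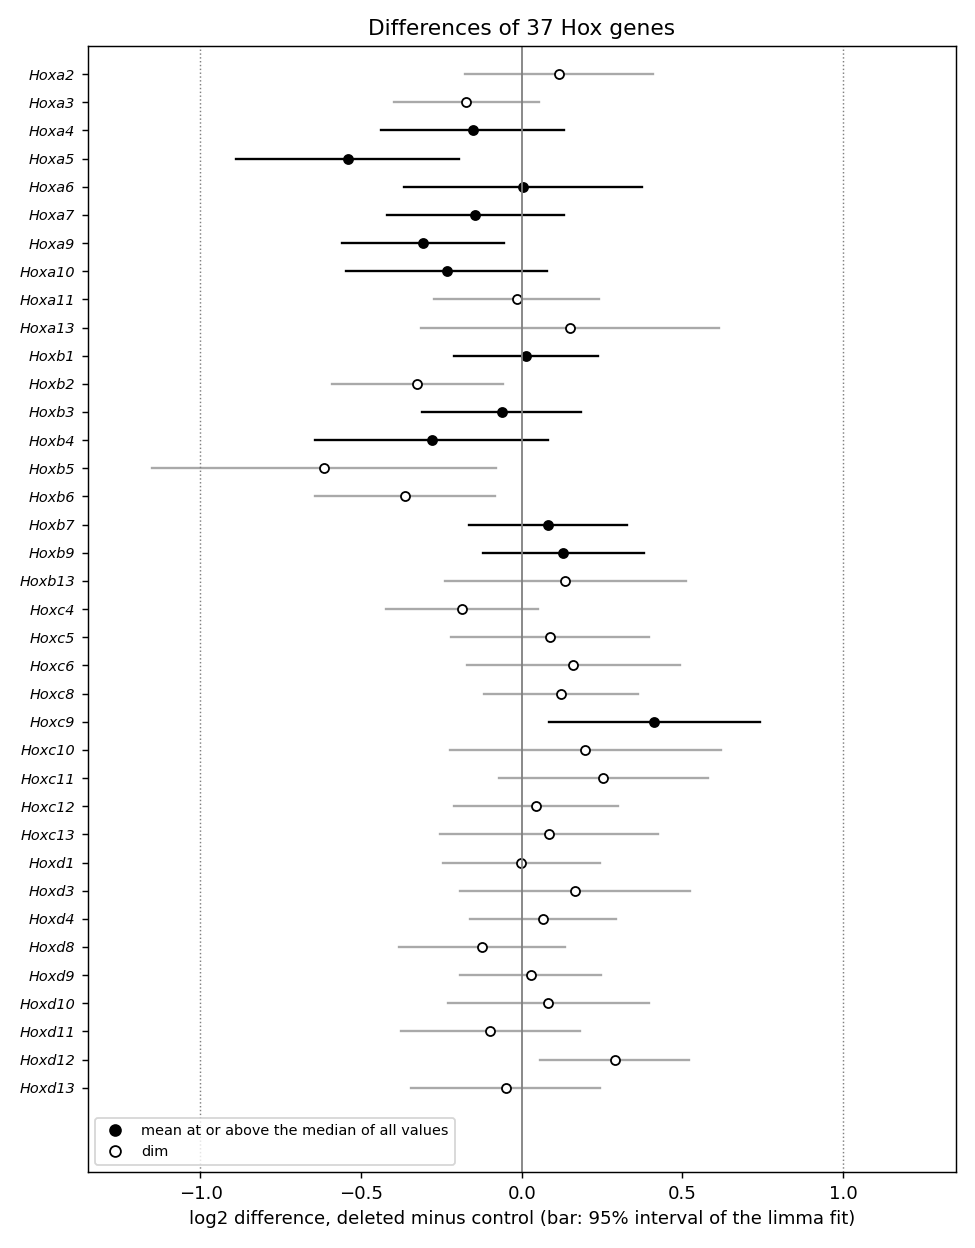
Log2 differences of the 37 Hox genes, deleted minus control, with 95% intervals of the limma fit. Filled points are rows at or above the median of all values and open points are dim rows. All intervals except that of Hoxb5 lie inside the dotted lines, which mark a change of 1 on the log2 scale.

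For all 12 Hox genes that were not dim, the 95% interval of the difference lay within 1 on the log2 scale in either direction, as it did for 10681 of the 11069 genes above the median. Intervals of the 25 dim rows describe the deposited values and bound no change in expression, and among them only that of Hoxb5 reached past that range, to -1.15. The median standard error of a difference was 0.125 for Hox genes and 0.121 for all genes.

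Most Hox rows were dim. Of the 37, 25 (67.6%) had a mean below the median of all values, compared with 44.5% of all genes. The 12 others were Hoxa4, Hoxa5, Hoxa6, Hoxa7, Hoxa9, Hoxa10, Hoxb1, Hoxb3, Hoxb4, Hoxb7, Hoxb9 and Hoxc9. In HoxA these are the 6 neighbouring genes from Hoxa4 to Hoxa10, while Hoxa2 and Hoxa3 on one side and Hoxa11 and Hoxa13 on the other were dim. In HoxB they were 5 of 9, in HoxC 1 of 9 and in HoxD 0 of 9. On every array 9 genes read above the median and 21 below it, and 7 crossed it. Just inside the limit was Hoxc9, with a mean of 6.28, and just outside it were Hoxd11 with 6.20 and Hoxb5 with 6.18.

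**Figure D2:**
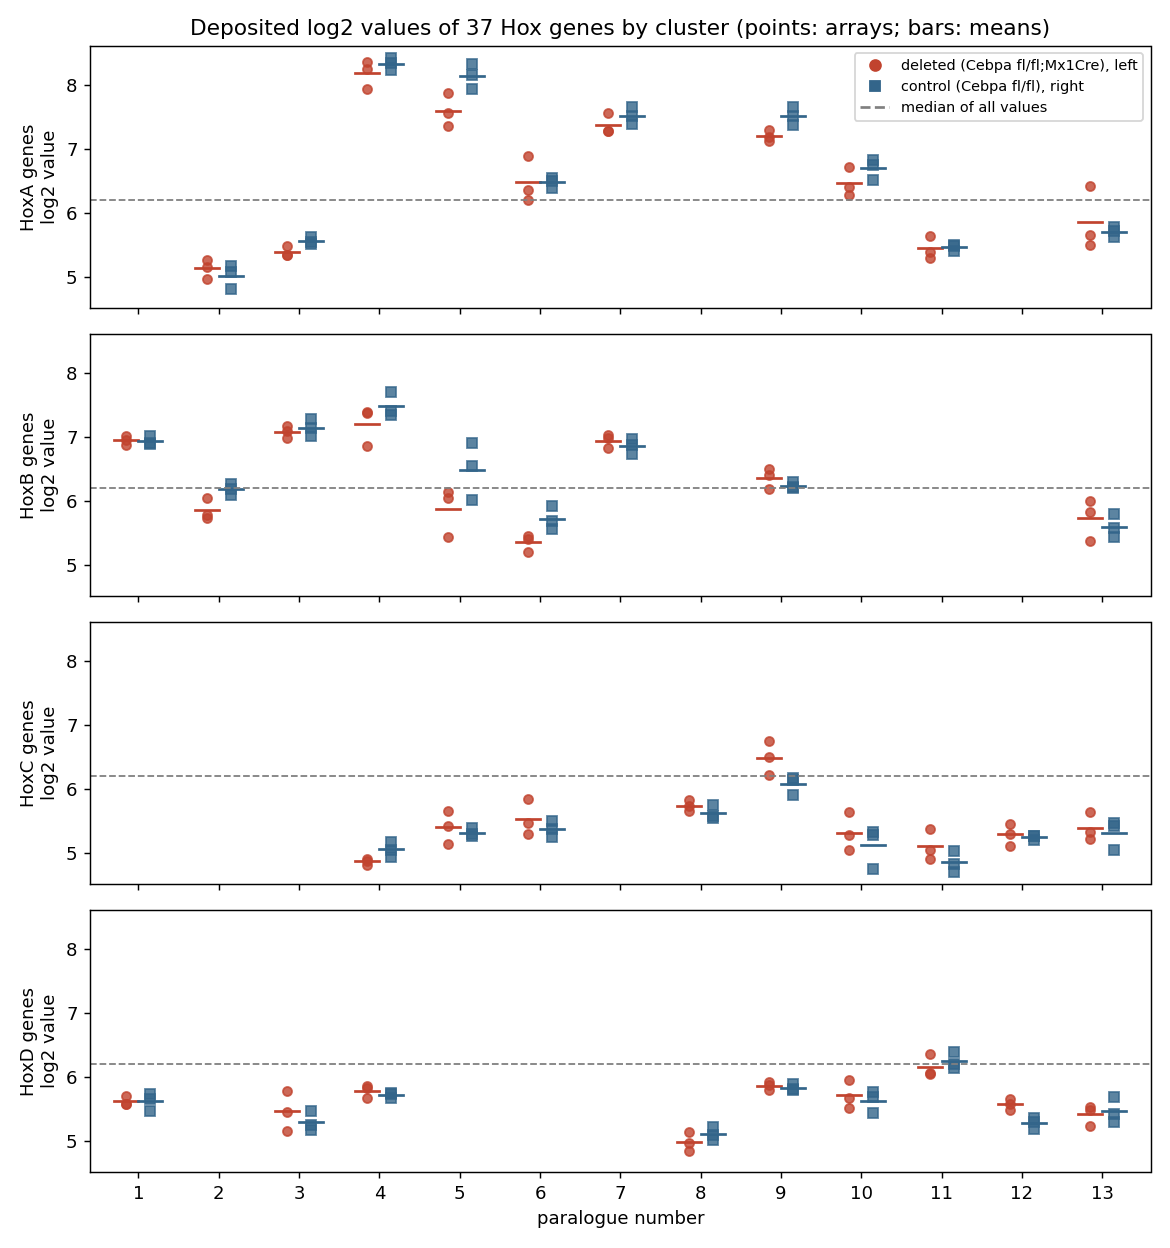
Deposited log2 values of the 37 Hox genes by cluster and paralogue number. Circles are the 3 deleted arrays (left), squares the 3 control arrays (right), short bars are means and the dashed line is the median of all values, 6.20. HoxA genes 4 to 10 and 5 HoxB genes lie above the line, and HoxD genes lie near or below it.

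Among the 6 HoxA genes above the median, 5 had a difference below 0 and Hoxa6 a difference of 0.00. Their median was -0.19, against 0.00 for all genes above the median. These genes are neighbours and were read on the same arrays, so they are not independent observations. Hoxa5, which restrains erythroid and promotes myeloid output of human progenitors, read 7.56, 7.35 and 7.87 in deleted samples, against 8.15, 8.32 and 7.93 in controls. The genotypes did not overlap, although deleted c and control c were only narrowly apart. The means were 7.59 ± 0.26 in deleted samples and 8.13 ± 0.20 in controls (SD, n = 3 each). The log2 difference was -0.54 ± 0.15 (SE), a 1.46-fold lower reading that did not pass (limma adjusted p = 0.127, unadjusted p = 0.00603 from the same fit).

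Hoxa9, whose product drives progenitor growth and is the Hox protein most often raised in acute myeloid leukaemia, read 7.12, 7.19 and 7.30 in deleted samples, against 7.65, 7.51 and 7.36 in controls. All deleted arrays lay below all control arrays, by little at the nearest pair. The log2 difference was -0.31 ± 0.11 (SE) and did not pass (limma adjusted p = 0.217, unadjusted p = 0.0217). Its 95% interval, -0.56 to -0.06, leaves a reading up to 1.47-fold lower in deleted samples.

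Hoxa10, the posterior neighbour of Hoxa9 and another regulator of progenitor growth, read 6.27, 6.71 and 6.40 in deleted samples, against 6.51, 6.82 and 6.75 in controls. The genotypes overlapped (log2 difference -0.23 ± 0.14 SE, limma adjusted p = 0.466). It was -0.14 without deleted a and -0.36 without deleted b. Hoxa7, often raised together with Hoxa9 in leukaemia, read 7.27, 7.56 and 7.27 in deleted samples, against 7.38, 7.64 and 7.52 in controls (-0.14 ± 0.12 SE, and between -0.24 and -0.08 with 1 array left out). Here the highest deleted array stood above the middle control array.

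Hoxa4, an anterior neighbour of Hoxa5, read 7.94, 8.34 and 8.24 in deleted samples, against 8.42, 8.33 and 8.23 in controls (-0.15 ± 0.13 SE). Only deleted a lay below all controls, and the difference was -0.03 without it and -0.24 without deleted b. Hoxa6 read 6.36, 6.20 and 6.88 in deleted samples, against 6.53, 6.39 and 6.50 in controls. Deleted c stood above every other array and the other deleted arrays below every control, which left a mean difference of 0.00 ± 0.16 (SE). Hoxa13, a dim gene used at the distal limb, had the same array highest, with 5.66, 5.50 and 6.41 in deleted samples and 5.71, 5.78 and 5.62 in controls.

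The remaining dim HoxA genes, Hoxa2, Hoxa3 and Hoxa11, had log2 differences of 0.12, -0.17 and -0.02. Hoxa3 did not overlap between genotypes, at 5.33 to 5.47 in deleted samples and 5.50 to 5.63 in controls, but the gap was small. Genotypes did not overlap for 8 of the 37 Hox genes, or 21.6%, against 21.2% of all genes. The 8 were Hoxa3, Hoxa5, Hoxa9, Hoxb2, Hoxb6, Hoxc4, Hoxc9 and Hoxd12.

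In HoxB, the 3 genes with an unadjusted p under 0.05 were Hoxb2, Hoxb5 and Hoxb6, each lower in deleted samples, and each was dim by its mean. Hoxb5, the mouse long-term stem cell marker, had the widest spread of the 3. It read 5.44, 6.04 and 6.14 in deleted samples, against 6.01, 6.91 and 6.53 in controls, with means of 5.87 ± 0.38 and 6.49 ± 0.45 (SD, n = 3 each). Control a lay among the deleted arrays, so the genotypes overlapped. The log2 difference was -0.61 ± 0.24 (SE, limma adjusted p = 0.247), and it was -0.85 without control a, -0.40 without deleted a and -0.40 without control b.

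Hoxb6, which in mice promotes expansion of myeloid precursors when overexpressed, read 5.40, 5.46 and 5.21 in deleted samples, against 5.92, 5.56 and 5.68 in controls. The genotypes did not overlap, and all 6 values lay below the median of all values (-0.36 ± 0.13 SE, limma adjusted p = 0.195). Hoxb2, an anterior gene, read 5.78, 5.72 and 6.05 in deleted samples, against 6.18, 6.08 and 6.27 in controls. It too did not overlap (-0.32 ± 0.12 SE, limma adjusted p = 0.217). Both lay at levels where background may make up much of the reading, so these differences are of deposited values only.

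The 5 HoxB genes above the median showed smaller differences. Hoxb4, the stem cell self-renewal factor, read 6.86, 7.37 and 7.39 in deleted samples, against 7.70, 7.34 and 7.41 in controls. Deleted a was the lowest and control a the highest of the 6 arrays, and the other 4 lay between 7.34 and 7.41 (-0.28 ± 0.16 SE, limma adjusted p = 0.450). The difference was -0.11 without deleted a and -0.17 without control a. Hoxb3, which acts with Hoxb4 in progenitor growth, read 6.99, 7.16 and 7.09 in deleted samples, against 7.28, 7.02 and 7.13 in controls (-0.06 ± 0.11 SE).

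Hoxb7 read 6.97, 6.82 and 7.02 in deleted samples, against 6.88, 6.96 and 6.73 in controls (0.08 ± 0.11 SE). Hoxb1, a hindbrain patterning gene at the anterior end of the cluster, read 7.01, 6.95 and 6.87 in deleted samples, against 6.88, 6.90 and 7.01 in controls. Its interval, -0.21 to 0.24, was among the narrow ones, and the genotypes overlapped fully. Hoxb9 read 6.41, 6.49 and 6.18 in deleted samples, against 6.29, 6.21 and 6.20 in controls (0.13 ± 0.11 SE), and the posterior Hoxb13 was dim (difference 0.14).

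Of the 9 HoxC genes 8 were dim. Differences were above 0 for 8 of the 9, with a median of 0.12. Above 0 were also 11272 of all 19938 genes and 5658 of the 8869 dim genes, whose median was 0.05. HoxC genes too are neighbours read on the same arrays, so they are not independent observations. Hoxc9 was the one HoxC gene above the median. It read 6.21, 6.49 and 6.74 in deleted samples, against 5.91, 6.13 and 6.17 in controls. Every deleted array lay above every control array, the nearest pair being deleted a and control c. The log2 difference was 0.41 ± 0.15 (SE), a 1.33-fold higher reading that did not pass (limma adjusted p = 0.206, unadjusted p = 0.0191).

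The other HoxC genes were dim on all 6 arrays. Hoxc4, which in human progenitors promotes expansion, had the one difference below 0 (-0.19), with 4.81 to 4.91 in deleted samples and 4.94 to 5.18 in controls. Differences of Hoxc5, Hoxc6, Hoxc8, Hoxc10, Hoxc11, Hoxc12 and Hoxc13 were 0.09, 0.16, 0.12, 0.20, 0.25, 0.04 and 0.09. None had an unadjusted p under 0.05.

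HoxD genes, best known for limb and axial patterning, were all dim and had a median difference of 0.03. Hoxd12 read 5.49, 5.58 and 5.65 in deleted samples, against 5.36, 5.30 and 5.18 in controls. The genotypes did not overlap, but every value was below the median of all values (0.29 ± 0.10 SE, limma adjusted p = 0.209). Hoxd11, at the limit of dim, read 6.04 to 6.35 in deleted samples and 6.14 to 6.39 in controls (-0.10 ± 0.12 SE). Differences of Hoxd1, Hoxd3, Hoxd4, Hoxd8, Hoxd9, Hoxd10 and Hoxd13 lay between -0.13 and 0.17.

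Grouped by paralogue number across clusters, the median difference was -0.001 over the 7 genes of groups 1 to 3, -0.14 over the 14 of groups 4 to 8, and 0.08 over the 16 of groups 9 to 13. Among the 12 Hox genes above the median, 3 had an unadjusted p under 0.05, against 21.6% of all genes above the median, and for dim Hox genes 4 of 25 (16.0%), against 8.7% of all dim genes. Of these, 2 of the 12 and 3 of the 25 read lower, against 9.95% of genes above the median and 2.8% of dim genes. No test was made of these shares. Replicates within a genotype varied slightly more for Hox genes (median within-genotype SD 0.16) than for all genes (0.15).

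**Figure D3:**
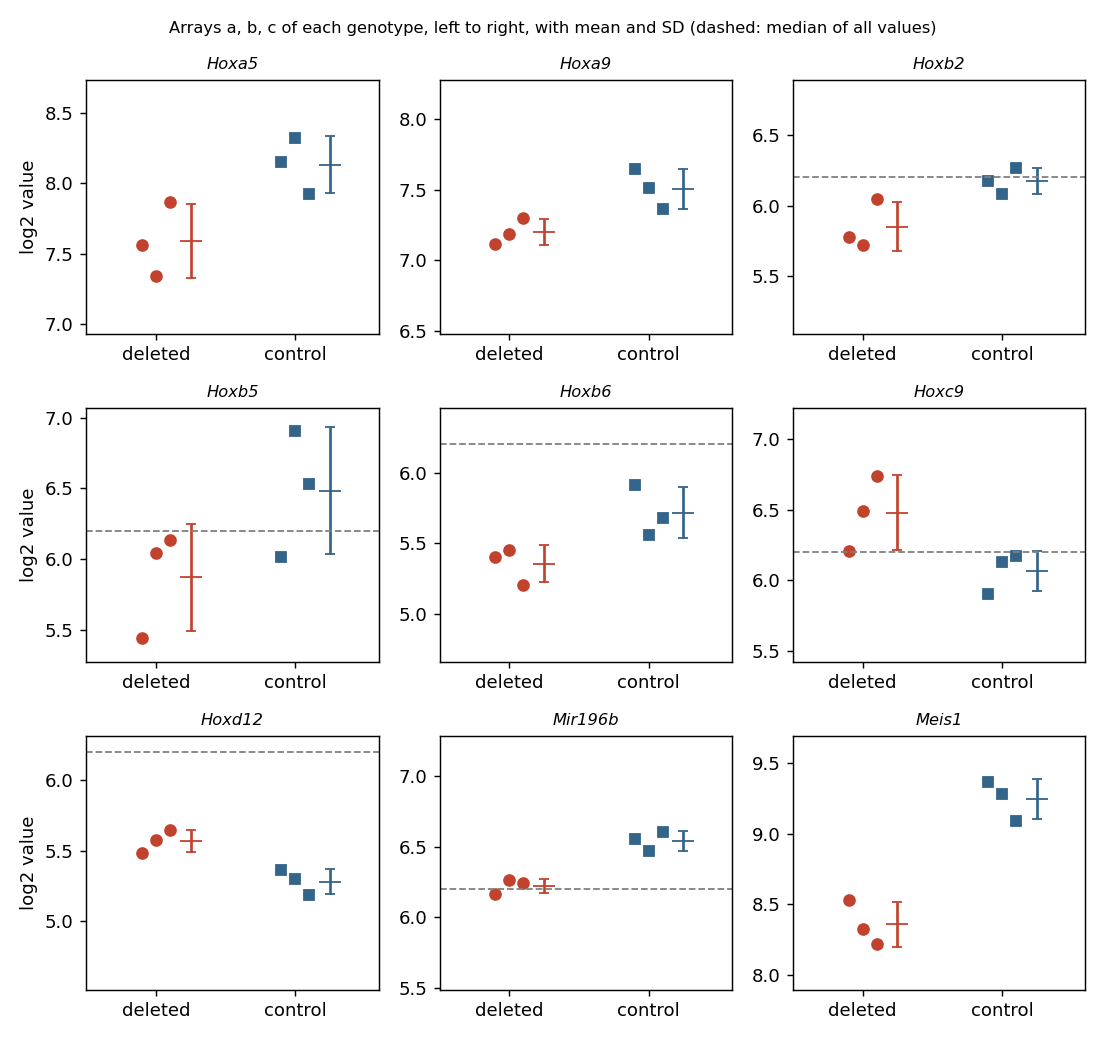
Log2 values of the 7 Hox genes with an unadjusted p under 0.05, of Mir196b and of Meis1. Points are the arrays a, b and c of each genotype, deleted at the left and control at the right, with mean and SD beside them, and the dashed line is the median of all values. The genotypes are well apart for Meis1, close together for Hoxa9, and overlap for Hoxb5.

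The TALE partners of Hox proteins were next considered, since their level sets how Hox proteins bind. Of 8 measured partners, Meis1 fell and none rose, where 0.732% of all genes were called lower and 0.702% higher. Meis1, the cofactor that works with Hoxa9 in stem cells and leukaemia, read 8.53, 8.33 and 8.22 in deleted samples, against 9.37, 9.28 and 9.09 in controls. The genotypes were clearly separate (log2 difference -0.89 ± 0.12 SE, 1.85-fold lower, limma adjusted p = 0.0117), and the adjusted p was 0.0554 without deleted b and 0.0553 without control b.

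Pbx4, a Pbx family member, read 6.94, 6.88 and 6.98 in deleted samples, against 7.27, 7.52 and 7.21 in controls. It did not overlap but did not pass (-0.40 ± 0.11 SE, limma adjusted p = 0.126). Meis2, Meis3, Pbx2, Pbx3, Pknox1 and Pknox2 had differences between -0.10 and 0.22. The list median was 0.02.

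The promoter windows of Hoxa5 and Hoxa9, the HoxA genes with an unadjusted p under 0.05, and of Meis1, the partner that fell, are shown as RefSeq gives them for assembly GRCm38.p6, from 250 bases before to 50 after the annotated start, on the gene's strand. They were searched on both strands for the C/EBP palindrome TTGCGCAA, a loose C/EBP core TTNNGNAA (which includes the palindrome), the Meis motif TGACAG and the Pbx-Hox motif TGATNNAT. Capitals mark matches.
Hoxa5, chr6:52204538-52204837, minus strand: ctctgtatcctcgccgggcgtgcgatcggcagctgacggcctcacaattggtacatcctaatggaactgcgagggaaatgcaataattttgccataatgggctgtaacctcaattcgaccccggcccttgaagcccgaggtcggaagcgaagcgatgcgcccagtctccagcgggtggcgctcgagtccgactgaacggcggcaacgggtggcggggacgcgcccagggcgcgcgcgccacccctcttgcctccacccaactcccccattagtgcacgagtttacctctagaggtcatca
Hoxa9, chr6:52227321-52227620, minus strand: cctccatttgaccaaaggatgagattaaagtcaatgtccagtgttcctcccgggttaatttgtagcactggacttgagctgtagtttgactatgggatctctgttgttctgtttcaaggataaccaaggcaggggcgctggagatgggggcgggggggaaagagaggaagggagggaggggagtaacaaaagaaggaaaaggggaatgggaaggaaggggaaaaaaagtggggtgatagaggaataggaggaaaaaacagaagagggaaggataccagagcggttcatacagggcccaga
Meis1, chr11:19018920-19019219, minus strand: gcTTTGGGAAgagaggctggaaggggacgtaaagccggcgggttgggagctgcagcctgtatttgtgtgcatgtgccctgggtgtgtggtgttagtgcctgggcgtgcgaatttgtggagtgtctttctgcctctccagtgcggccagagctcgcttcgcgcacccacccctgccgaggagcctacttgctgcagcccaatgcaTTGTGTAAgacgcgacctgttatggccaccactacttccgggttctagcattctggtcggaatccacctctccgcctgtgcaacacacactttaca

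The Hoxa5 and Hoxa9 windows held none of these letters. The Meis1 window held the loose core in 2 places, starting 248 and 46 bases before the start site. The loose core was found in 40.7% of all 32851 promoter windows and in 6 of the 23 windows of the 21 Hox genes listed, those of Hoxa10, Hoxc4, Hoxd11 and Hoxd12. The palindrome was in 0.183% of all windows and in 0 of the 23 Hox windows. The Meis motif was in 19.2% of all windows and 2 Hox windows, and the Pbx-Hox motif in 8.85% of all windows and 3 Hox windows. A match is a description of the letters only.

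Inside the clusters lie microRNA genes, of which the miR-196 family is known to repress Hoxb8 and other Hox transcripts and the miR-10 family lies beside paralogue group 4. The mature sequences are shown for the measured genes of these families, with the seed (bases 2 to 8) in capitals, to show which share a seed. They are from RefSeq, GRCm38.p6.
miR-196b-5p (Mir196b, HoxA): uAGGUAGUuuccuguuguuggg
miR-196a-5p (Mir196a-1 in HoxB and Mir196a-2 in HoxC): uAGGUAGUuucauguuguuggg
miR-10a-5p (Mir10a, HoxB): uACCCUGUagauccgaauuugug
miR-10b-5p (Mir10b, HoxD): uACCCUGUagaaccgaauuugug
Within each family the seeds are the same and the mature sequences differ at 1 base.

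Mir196b lies in HoxA between Hoxa9 and Hoxa10. Its row read 6.17, 6.26 and 6.24 in deleted samples, against 6.56, 6.47 and 6.61 in controls. The genotypes did not overlap, and replicates were tight (-0.32 ± 0.10 SE), but the difference did not pass (limma adjusted p = 0.154). Such a row need not read the mature microRNA, and what its probes read was not checked here. The rows of Mir196a-1 (0.23), Mir196a-2 (-0.27), Mir10a (0.01) and Mir10b (0.11) were dim. Of 8 measured RNA genes of the clusters in the list, 0 passed, with a median of -0.06. The long RNAs Hottip and Hoxaas2 of HoxA had differences of -0.07 and -0.13.

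Genes next to the clusters were read as a local comparison. Of the 24 genes nearest to the 4 clusters, 3 on each side, 0 passed, and their median was 0.07. The 2 with the smallest p were Atp5g2 beside HoxC, a subunit of ATP synthase (-0.79 ± 0.22 SE, limma adjusted p = 0.122), and Lnpk beside HoxD, a protein of the endoplasmic reticulum (0.64 ± 0.20 SE, limma adjusted p = 0.160). Beside HoxA, Skap2 had a difference of 0.21 and Evx1, a homeobox gene, -0.09.

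**Figure D4:**
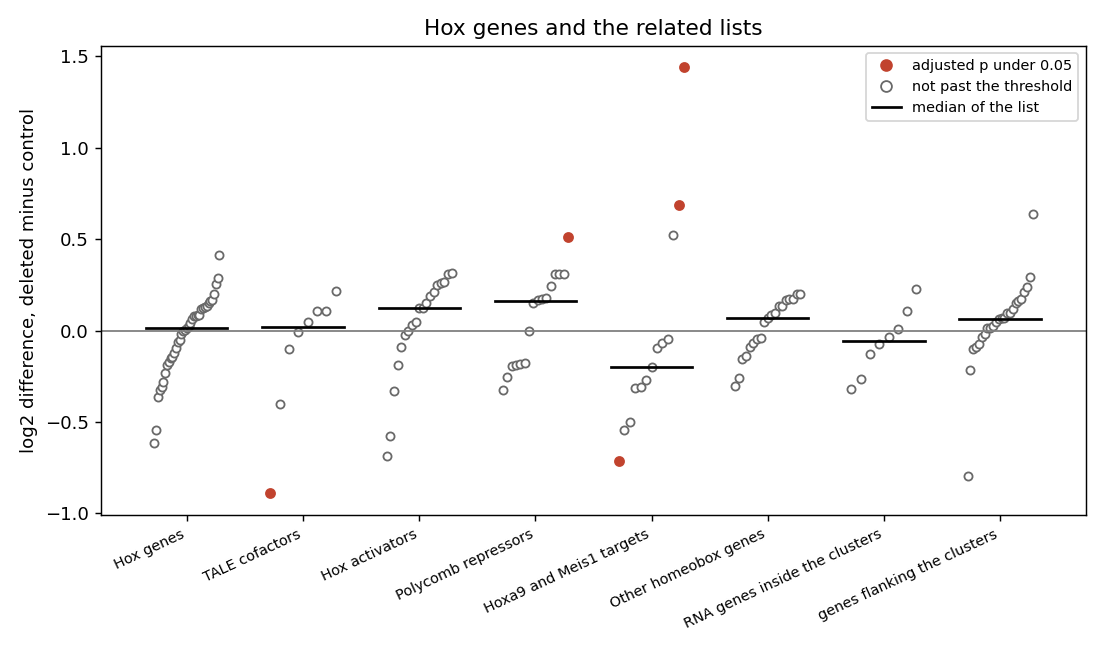
Log2 differences, deleted minus control, of the 37 Hox genes and of 7 related lists, each point a gene and each bar the list's median. Filled points passed an adjusted p under 0.05: Meis1 among the TALE cofactors, Rnf2 among the Polycomb genes, and Flt3, Pim1 and Id2 among the targets.

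Of 19 activators of Hox genes, 0 passed, with a median of 0.12. Kmt2a, the MLL methyltransferase that maintains Hox transcription, read 9.75, 9.56 and 9.74 in deleted samples, against 10.00, 10.51 and 10.27 in controls. The genotypes did not overlap (-0.58 ± 0.14 SE, limma adjusted p = 0.0811). Mllt3 (AF9), an elongation cofactor and frequent MLL fusion partner, read 8.49, 8.22 and 8.68 in deleted samples, against 8.77, 9.49 and 9.18 in controls (-0.69 ± 0.19 SE, limma adjusted p = 0.110). Its deleted arrays were all lower, the nearest pair being deleted c and control a.

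Of 16 Polycomb and related repressors, 1 rose and none fell, where 0.702% of all genes were called higher and 0.732% lower. Rnf2 (RING1B), the ubiquitin ligase of Polycomb complex 1, read 8.33, 8.13 and 8.18 in deleted samples, against 7.74, 7.68 and 7.70 in controls. The genotypes were separate (0.51 ± 0.10 SE, limma adjusted p = 0.0440), but the call was lost when any 1 array was left out (adjusted p up to 0.147) and with an intensity trend (0.0505). Gmnn, geminin, which can bind Hox proteins and Polycomb, had a difference of 0.31 ± 0.11 (SE, limma adjusted p = 0.223). The list median was 0.16.

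Of 13 genes known as targets of Hoxa9 or Meis1 from blood and leukaemia studies, 2 rose and 1 fell, with a median of -0.20. Over all genes 1.43% were called. Of the 13, 11 lay above the median of all values, and Flt3 and Cd34 are also in the LSK marker list. At an unadjusted limma p under 0.05 there were 9 of the 13 (69.2%), 6 lower and 3 higher. That compares with 15.9% of all genes and 21.6% of all genes above the median. Genotypes did not overlap for 8 (61.5%), against 21.2% of all genes and 26.4% of all genes above the median. These shares were not tested, and the list was chosen with earlier results of these data known. Flt3, the receptor tyrosine kinase of early progenitors, fell to 8.96, 9.24 and 9.53 in deleted samples, against 9.90, 9.98 and 9.99 in controls (-0.71 ± 0.14 SE, limma adjusted p = 0.0469). It did not pass after quantile normalization (0.0582), median centring (0.0511) or cyclic loess (0.0553). It also missed the threshold when any array other than deleted c was left out, with adjusted p up to 0.145.

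Pim1, a survival kinase, rose to 8.45, 8.03 and 8.05 in deleted samples, against 7.38, 7.54 and 7.56 in controls (0.69 ± 0.13 SE, limma adjusted p = 0.0426), and lost its call without any 1 array (up to 0.130). Id2, an inhibitor of E proteins, rose to 6.75, 6.99 and 7.51 in deleted samples, against 5.68, 5.85 and 5.40 in controls (1.44 ± 0.19 SE, limma adjusted p = 0.0108). Its control values lay below the median of all values. The called targets went in both directions. The list does not record which way Hoxa9 or Meis1 regulates each gene, so neither these directions nor the list median measures target output. Of 19 homeobox genes outside the clusters 0 passed, and the 2 with the smallest p were Zhx3 (-0.30, limma adjusted p = 0.332) and Cux1 (-0.26, limma adjusted p = 0.359).

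Limb and bone stroma also express Hox genes, so 11 stromal and bone markers were read. Pdgfrb rose by 0.99 (limma adjusted p = 0.0104, and 0.0541 without control b). The list averaged 5.93 to 6.03 on deleted arrays and 5.80 to 5.91 on control arrays with Pdgfrb. The other 10, none of which passed, averaged 5.73 to 5.86 on deleted arrays and 5.71 to 5.80 on control arrays, a split added after the data were seen. Of the 11 markers 7 were dim. The part of these markers, of Itgam and of the LSK markers in the Hox values was not tested. Each array read a sample's sorted cells together, so fewer cells of a type and less RNA per cell cannot be told apart.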

How the data were processed

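The authors deposited log2 values per row of 6 one-colour arrays, 3 per genotype. The submitters' processing notes list RMA (background correction, normalization between arrays and summary per probe set) with Affymetrix Expression Console 1.1.2. Its settings and the build behind the annotation were not given there. Of 35556 rows, 21789 name 1 gene in the platform annotation, 1621 several and 12146 none. The highest-mean row was kept for each of 19938 genes, with no filter. RefSeq (GRCm38.p6), matched by gene ID for all 37 Hox genes, gave chromosomes, neighbours and sequences.

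Deleted and control arrays were fitted in limma 3.58.1 under R 4.3.3 (lmFit, then eBayes; 5.52 prior degrees of freedom, two-sided, Benjamini-Hochberg over all genes, threshold 0.05). Signed differences are deleted minus control. Tables and figures used Python 3.11.15 with pandas 2.3.3, SciPy 1.17.1 and matplotlib 3.10.9. On data of 19938 genes simulated with independent errors, the fit recovered 91% of 200 genes changed by 1 on the log2 scale, with 4.71% of calls false. Smaller changes, the size of every Hox difference here, were not simulated, so this recovery does not describe them.

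Values per array are given for Hox genes at or above the median of all values or with an unadjusted p under 0.05, and of each list for genes that passed and, in values or differences, the 2 with the smallest p. Other differences are named to account for every Hox gene, and Kit and Pdgfrb because they passed among the marker lists. The members and lists were chosen with earlier results of these data known. The number of arrays limits the precision.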

Additional observations from a re-analysis of the deposited data

How the results depend on the processing

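The limits of these comparisons are 3 samples per genotype, no detection calls, and low signal for 25 of the 37 Hox genes. Under all 17 alternative fits, and at an adjusted p under 0.1 with the fit as reported, 0 Hox genes were higher or lower at the adjusted threshold; the smallest adjusted p of any Hox gene was 0.0660 (Hoxb5), with the letters of the titles as a replicate block. Arrays of the same letter showed no shared deviation over all genes (correlations of deviations from the genotype means between -0.04 and 0.06). This does not show whether the samples were paired in the experiment. With the block 274 genes of all were called. The count of 286 genes called became 438 with only genes whose mean reached the median of all gene means, 676 at an adjusted p under 0.1, and 53 (without control b) to 250 (without control c) when 1 array was left out; 145, 84, 143 and 126 were called without deleted a, deleted b, deleted c and control a. The share of called genes that were higher was 49.0% with the deposited values, 61.6% after quantile normalization and 65.8% after median centring. The median Hox difference of 0.01 became -0.15 among the 10 Hox genes left by that filter. Each gene's own difference stayed as it was, and the median moved because the rows with lower means were dropped. Differences near 0 changed sign: Hoxa6 was -0.016 with array weights and ranged from -0.20 to 0.14 as single arrays were left out, Hoxb1 ranged from -0.019 to 0.052, and Hoxb3 was 0.011 after quantile normalization and ranged from -0.12 to 0.0066. Rnf2 and Pim1 lost their calls with the block (adjusted p = 0.0707 and 0.0688).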
